A study of Homo sapiens with 12 samples.

Results

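*FCGRT* encodes the heavy chain of the neonatal Fc receptor, FcRn, and was examined together with 8 further Fc receptor and Fc receptor-like genes in 2 human B-cell lines with high or low expression of the glucuronidating enzyme UGT2B17. The 9 genes were chosen by symbol as *FCGRT*, *FCRL1*, *FCRL2*, *FCRL3*, *FCRL4*, *FCRL5*, *FCRLA*, *FCGR2A* and *FCGR2B*. *FCGRT* was chosen as the largest rise shared by both lines among genes above a floor of mean expression. Its 2B17 over CTRL values are therefore given as a description without a test. The other 8 were named as relatives of it by family, and the question put to them was whether they move with it. Of the 9 genes, 7 were found among the 22441 genes of the MEC1 table and 6 among the 17144 genes of the JVM2 table. *FCRL3* was read in MEC1 alone, and *FCRL1* and *FCRL2* were not analysed here.

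MEC1 and JVM2 are established lines of neoplastic B cells. RNA of 12 libraries was compared, 3 biological replicates in each of 4 populations. MEC1-2B17 and JVM2-2B17 carried pcDNA6 with the *UGT2B17* coding sequence under blasticidin, JVM2-CTRL carried the empty pcDNA6 under blasticidin, and MEC1-CTRL carried an shRNA against *UGT2B17* under puromycin. In MEC1 the construct, the antibiotic and the level of *UGT2B17* thus change together and cannot be told apart. In a difference of the 2B17 effect between the lines, the line likewise cannot be told apart from the construct and antibiotic of its control. Whether a population was a clone or a pool of transfected cells was not given in the sources used here. Libraries held 31762649 to 37744991 counts in MEC1 and 8809179 to 11231330 in JVM2, so low genes were measured with less precision in JVM2. *UGT2B17* was higher in the 2B17 arm of both lines without overlap, by 0.94 on the log2 scale in MEC1 (SE 0.069) and 0.48 in JVM2 (SE 0.11). High and low hold within a line only. On a joint scale the mean of JVM2-CTRL, 29.7 CPM, lay above that of MEC1-2B17, 20.1 CPM. Within the arms, MEC1-CTRL replicate 3 and JVM2-2B17 replicate 2 stood furthest from their fellows, with a mean chi-square per gene of 6.77 to 8.41 and of 8.35 to 8.58 against 2.5 and 2.24 between the remaining pair. Without the former 6606 genes were called in MEC1 in place of 6909, and without the latter 4541 in JVM2 in place of 3821. All 7 B-cell markers examined passed the filter on low counts in both lines. Of these, 3 were higher and 4 lower in MEC1-2B17 (log2 fold changes of -0.58 for *MS4A1*, the antigen CD20, to 0.42 for the kinase *BLK*), and 4 were higher and 1 lower in JVM2-2B17 (-0.39 for the receptor chain *CD79A* to 0.67 for *BLK*). Of all genes tested, 41.7% were called in MEC1 and 29.3% in JVM2. The part of these B-cell markers in the values of B-cell Fc receptors was not tested. None of the 5 T-cell markers passed the filter on low counts in either line. Of 7 monocyte or macrophage markers, 4 had counts in MEC1 and 3 in JVM2, and their summed level was 2.32 to 2.76 CPM in MEC1-CTRL, 4.65 to 5.24 CPM in MEC1-2B17, 5.41 to 6.58 CPM in JVM2-CTRL and 11.1 to 13.8 CPM in JVM2-2B17. *ITGAM*, an integrin of myeloid cells, was the highest of them and was higher in the 2B17 arm of both lines (log2 fold change 1.58 in MEC1 and 1.22 in JVM2). The listed marker *CSF1R* went the other way in MEC1 (-0.71), a call that was lost with DESeq2 and with a block for the replicate number. The monocyte marker *CD14* had 0 to 5 counts per MEC1 library and *LYZ* 0 to 5 counts per JVM2 library. The part of these markers in the *FCGRT* values was not tested, and in such bulk RNA fewer cells of a type and less RNA per cell cannot be told apart.

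Fc receptors bind the constant part of antibodies. FcRn, a pair of the *FCGRT* heavy chain and beta-2-microglobulin (*B2M*), binds IgG and albumin in acidified endosomes and returns them to the cell surface, which spares them from degradation. FcγRIIB (*FCGR2B*) is the inhibitory receptor through which IgG complexes restrain B-cell receptor signalling, whereas FcγRIIA (*FCGR2A*) is an activating receptor best known from myeloid cells and platelets. The FCRL proteins are related receptors of B cells that carry inhibitory (ITIM) and, in some, activating (ITAM-like) motifs. FCRLA is an intracellular relative retained in the endoplasmic reticulum.

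*FCGRT* lies apart from its relatives, on the plus strand of chromosome 19 at chr19:49506816-49526428 of GRCh38. The FCRL genes lie on the minus strand of chromosome 1, with *FCRL5* at chr1:157513377-157552515, *FCRL4* at chr1:157573747-157598085 and *FCRL3* at chr1:157674321-157700769. A further cluster on the plus strand of chromosome 1 holds *FCGR2A* (chr1:161505430-161524013), *FCGR2B* (chr1:161663143-161678654) and *FCRLA* (chr1:161706972-161714352). RefSeq gives a promoter window of 250 bases before to 50 bases after the start for all 9 genes (GRCh38.p14). The windows of *FCGRT* and of the 3 relatives that were tested in both lines are shown to compare what lies at their starts, with matches to the ETS core (GGAAG, on either strand) and the E-box (CANNTG) in capitals. They are chr19:49512411-49512710 (plus) for *FCGRT*, chr1:157552466-157552765 (minus) for *FCRL5*, chr1:161662893-161663192 (plus) for *FCGR2B* and chr1:161706979-161707278 (plus) for *FCRLA*.
FCGRT: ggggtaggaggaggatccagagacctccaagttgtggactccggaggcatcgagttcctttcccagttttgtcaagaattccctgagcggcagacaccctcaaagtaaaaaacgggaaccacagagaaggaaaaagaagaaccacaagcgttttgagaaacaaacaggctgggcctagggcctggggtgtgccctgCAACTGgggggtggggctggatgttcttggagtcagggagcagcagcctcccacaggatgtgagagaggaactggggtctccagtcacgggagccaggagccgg
FCRL5: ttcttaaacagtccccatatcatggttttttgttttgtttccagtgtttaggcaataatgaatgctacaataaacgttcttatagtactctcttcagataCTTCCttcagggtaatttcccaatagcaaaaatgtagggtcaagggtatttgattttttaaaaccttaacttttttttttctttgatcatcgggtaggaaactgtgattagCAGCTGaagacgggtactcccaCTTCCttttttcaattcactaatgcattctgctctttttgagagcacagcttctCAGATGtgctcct
FCGR2B: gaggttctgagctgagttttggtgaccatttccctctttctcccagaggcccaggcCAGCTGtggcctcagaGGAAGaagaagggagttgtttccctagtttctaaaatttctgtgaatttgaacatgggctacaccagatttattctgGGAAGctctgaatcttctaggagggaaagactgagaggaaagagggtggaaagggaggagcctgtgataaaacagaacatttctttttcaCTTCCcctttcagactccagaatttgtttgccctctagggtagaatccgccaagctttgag
FCRLA: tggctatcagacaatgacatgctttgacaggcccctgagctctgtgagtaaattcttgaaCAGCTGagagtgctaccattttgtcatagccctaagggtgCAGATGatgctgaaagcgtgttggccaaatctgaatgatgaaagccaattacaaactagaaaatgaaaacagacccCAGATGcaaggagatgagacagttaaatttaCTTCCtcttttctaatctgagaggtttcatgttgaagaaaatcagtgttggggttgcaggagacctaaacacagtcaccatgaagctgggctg
The *FCGRT* window has 57.0% G and C with 7 CpG, against 36.3% with 3 CpG for *FCRL5*, 46.7% with 1 CpG for *FCGR2B* and 43.3% with 1 CpG for *FCRLA*. Over all 35116 RefSeq promoter windows the median was 58.7% with 14 CpG. The *FCGRT* window lies inside the gene span given above, so the upstream end of that span is not covered. The letters of the ETS core are not in the *FCGRT* window, while they occur 2 times in that of *FCRL5*, 3 times in that of *FCGR2B* and 1 time in that of *FCRLA*. They occur in 71.9% of all windows, and the E-box, with 1 match in *FCGRT* at 54 bases before the start, occurs in 68.7%. *FCGR2B* has a second RefSeq window upstream, at chr1:161646993-161647292, with 5 E-box matches and none of the ETS core.

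*FCGRT* had few reads in the CTRL cells of both lines and several times more in the 2B17 cells. MEC1-CTRL replicates 1, 2 and 3 had 49, 47 and 33 counts, and those of MEC1-2B17 had 219, 189 and 209. In CPM, the usual library-scaled unit of counts, here with TMM, these were 1.29, 1.37 and 0.994 against 6.49, 5.79 and 6.59. In JVM2 there were 16, 29 and 16 counts in CTRL and 149, 90 and 116 in 2B17 cells, or 1.59, 2.71 and 1.70 CPM against 13.5, 10.1 and 13.1 CPM. The arms did not overlap in either line, as for 50.1% of all genes tested in MEC1 and 45.2% in JVM2, and every 2B17 library lay above every CTRL library of both lines. The fitted 2B17 over CTRL ratio was 5.14 in MEC1 and 6.06 in JVM2, and the fitted difference of the effects, MEC1 minus JVM2, was -0.24 on the log2 scale (SE 0.28). For a ranking by the smaller of the 2 log2 rises, 425 genes were called higher in both lines, without overlap and above a floor of mean expression. Among them *FCGRT* was first at 2.36, with *MEOX1* next at 1.69 and *TLN2* at 1.56. *EFNA1*, at 2.04 in MEC1 and 4.3 in JVM2, did not meet these conditions. No 50-base stretch of the *FCGRT* exons recurs in another annotated gene.

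**Figure D1:**
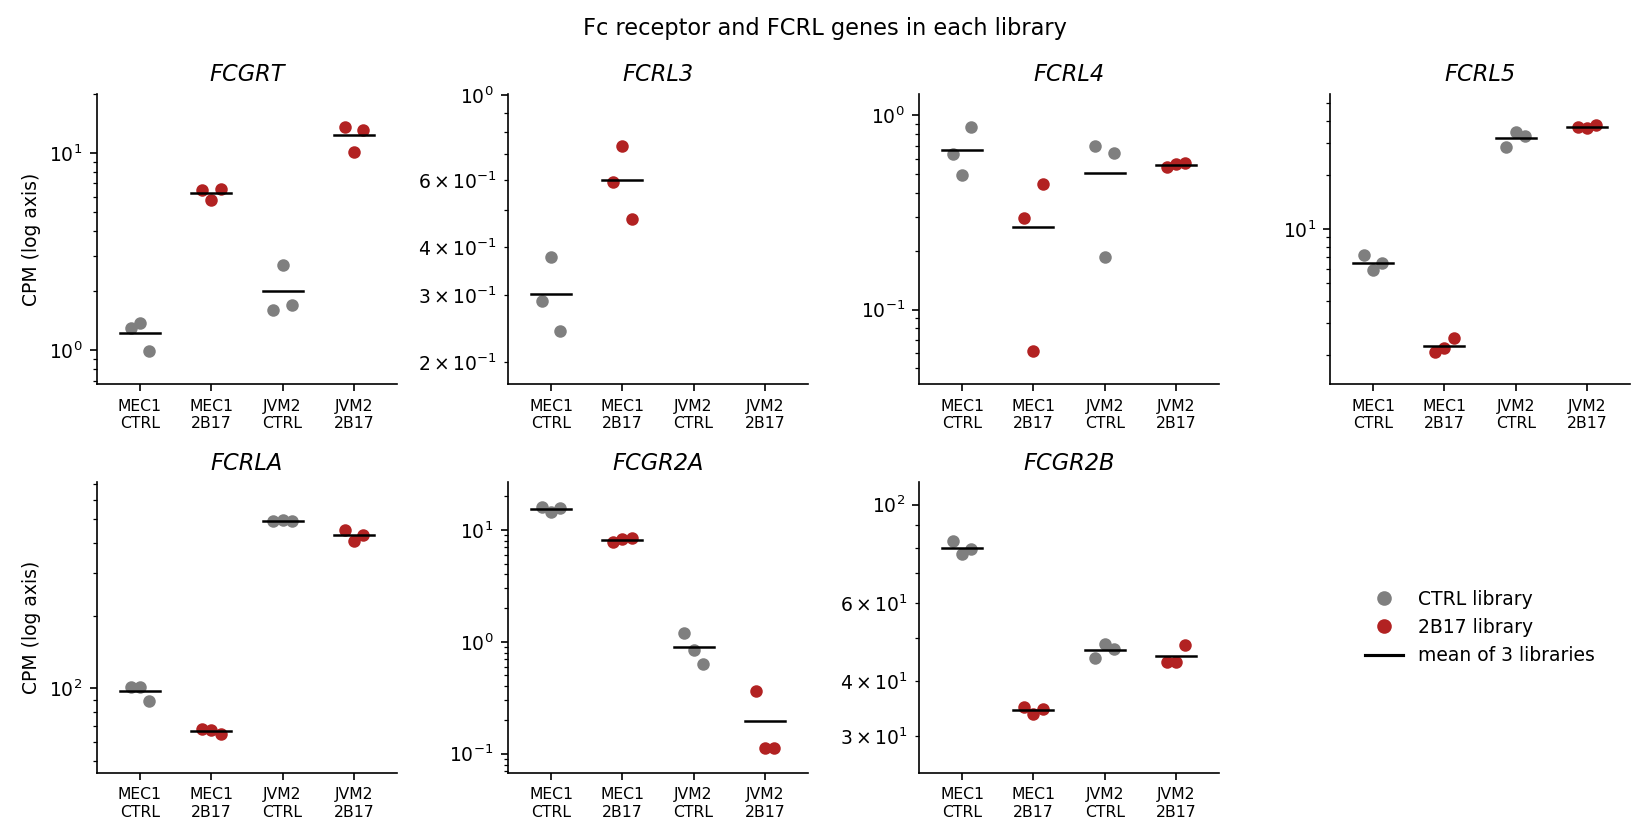
CPM (log axis, a separate scale in each panel) of 7 Fc receptor and FCRL genes in each library, with points for libraries and a bar for the mean of 3. *FCGRT* is higher in the 2B17 arm of both lines, *FCRL5*, *FCRLA*, *FCGR2A* and *FCGR2B* are lower in MEC1-2B17 than in MEC1-CTRL without overlap, and in JVM2 the *FCGR2B* arms overlap. *FCRL3* has no JVM2 values here.

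The relatives of *FCGRT* with enough reads in both arms of MEC1 moved the other way. *FCRL5*, *FCGR2B*, *FCGR2A* and *FCRLA* fell. *FCRL3* and *FCRL4* passed the filter on low counts only through the arm in which they were higher, and are described without a test. Over all 16581 genes tested in MEC1, 41.7% passed the same threshold (edgeR's quasi-likelihood test, Benjamini-Hochberg adjusted *P* below 0.05), with 20% higher and 21.6% lower, and the median over all genes was 0.0026. Since the genes were chosen with results of this contrast known, nothing is read from their number. Arms without overlap, stated below for single genes, were found for 50.1% of all genes tested in MEC1 and 45.2% in JVM2.

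The inhibitory receptor *FCGR2B* had 3146, 2657 and 2632 counts in MEC1-CTRL and 1178, 1101 and 1096 in MEC1-2B17. It fell from 79.7 ± 2.80 to 34.4 ± 0.603 CPM (SD over the 3 replicates, as throughout), and its log2 ratio was -1.21 (SE 0.043, edgeR adjusted *P* = 1.1e-13). The JVM2-CTRL libraries had 451, 520 and 444 counts and those of JVM2-2B17 had 488, 392 and 427, with 46.9 ± 1.80 and 45.6 ± 2.38 CPM. The JVM2 arms overlapped, and the log2 fold change there was -0.04 (SE 0.072, edgeR adjusted *P* = 0.70). The effect in MEC1 was lower than that in JVM2 by a tested difference of -1.17 (SE 0.079, edgeR adjusted *P* = 4.8e-10). Of the 50-base stretches of *FCGR2B* exons, 12.7% also occur in *FCGR2C*, so the division of reads between these genes is uncertain.

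The activating receptor *FCGR2A* had 610, 501 and 524 counts in MEC1-CTRL and 265, 268 and 270 in MEC1-2B17. Its level went from 15.5 ± 0.795 to 8.19 ± 0.334 CPM with a log2 ratio of -0.92 (SE 0.072, edgeR adjusted *P* = 5.5e-09), and the arms did not overlap. In JVM2 it had 12, 9 and 6 counts in CTRL and 4, 1 and 1 in 2B17 cells, too few to pass the filter on low counts. The ratio of the summed counts there, scaled for library size, was 0.232 (95% interval 0.0784 to 0.574, counting error only). The fitted difference of its effects, MEC1 minus JVM2, was 1.16 on the log2 scale (SE 0.55). It is given no test, since the JVM2 reads were few. Of its 50-base stretches, 25.9% occur in other annotated genes, 13.9% in a long noncoding RNA (ENSG00000289273), which leaves its counts uncertain.

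*FCRL5*, a surface receptor of mature B cells and plasma cells, had the lowest log2 fold change of the relatives in MEC1 and a different effect in JVM2. It had 272, 204 and 215 counts in MEC1-CTRL and 70, 72 and 79 in MEC1-2B17, or 6.52 ± 0.615 and 2.26 ± 0.214 CPM. The log2 fold change was -1.53 (SE 0.12, edgeR adjusted *P* = 5.4e-09). In JVM2 it had 28.7, 34.7 and 32.8 CPM in CTRL and 36.9, 36.4 and 37.7 CPM in 2B17 cells. These arms did not overlap either, but the log2 fold change of 0.20 did not pass the test (SE 0.085, edgeR adjusted *P* = 0.090; 0.046 without JVM2-2B17 replicate 2). The tested difference between the lines was -1.73 (SE 0.14, edgeR adjusted *P* = 7.9e-09).

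*FCRLA*, the most abundant of the relatives per length in both lines, fell in both by different amounts. It had 101, 102 and 88.9 CPM in MEC1-CTRL and 68.1, 67.6 and 64.5 CPM in the 2B17 cells, and the log2 ratio of 2B17 over CTRL was -0.54 (SE 0.047, edgeR adjusted *P* = 2.0e-08). In JVM2 it had 492, 495 and 492 CPM in CTRL and 453, 407 and 431 CPM in 2B17 cells, which gave a log2 ratio of -0.20 (SE 0.055, edgeR adjusted *P* = 0.019). The arms did not overlap in either line. The JVM2 call was lost without JVM2-CTRL replicate 1, 2 or 3 (adjusted *P* = 0.053, 0.074 and 0.080 in edgeR), while the log2 fold change stayed near -0.19 or -0.20 in those fits. The fall was larger in MEC1 by a tested difference of -0.34 (SE 0.078, edgeR adjusted *P* = 0.0019).

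*FCRL3* and *FCRL4*, B-cell receptors with ITIMs, had few reads. *FCRL3* had 11, 13 and 8 counts in MEC1-CTRL and 20, 24 and 15 in MEC1-2B17. It reached the level the filter asks for in all 3 libraries of the 2B17 arm alone. The ratio of its summed counts, scaled for library size, was 1.97. *FCRL4* had 24, 17 and 29 counts in MEC1-CTRL and 10, 2 and 14 in MEC1-2B17, and reached that level in all 3 libraries of the CTRL arm alone. Its scaled ratio was 0.397. The MEC1 arms of *FCRL3* and of *FCRL4* did not overlap in counts, as in CPM for 50.1% of all genes tested in MEC1. Each gene passed the filter through its higher arm, so no difference is read from these values. In JVM2, *FCRL4* had 7, 2 and 6 counts in CTRL and 6, 5 and 5 in 2B17 cells and was not tested, with a scaled ratio of 1.11 (95% interval 0.516 to 2.42, counting error only).

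In JVM2, of the 3 relatives of *FCGRT* that passed the filter, *FCRLA* fell and *FCRL5* and *FCGR2B* did not pass the test, the median of the log2 ratios being -0.042. Of all 13021 genes tested in JVM2, 29.3% passed, 14.1% higher and 15.3% lower, and nothing is read from the single call. *FCRL5*, *FCGR2B* and *FCRLA* differed between the lines in the joint fit of all 12 libraries. *FCRL4*, with few reads in every arm, and *FCGR2A*, with few reads in JVM2, are given no test of that difference. Of the 15130 genes of that fit, 32% differed between the lines, 15.3% with a higher and 16.7% with a lower effect in MEC1.

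**Figure D2:**
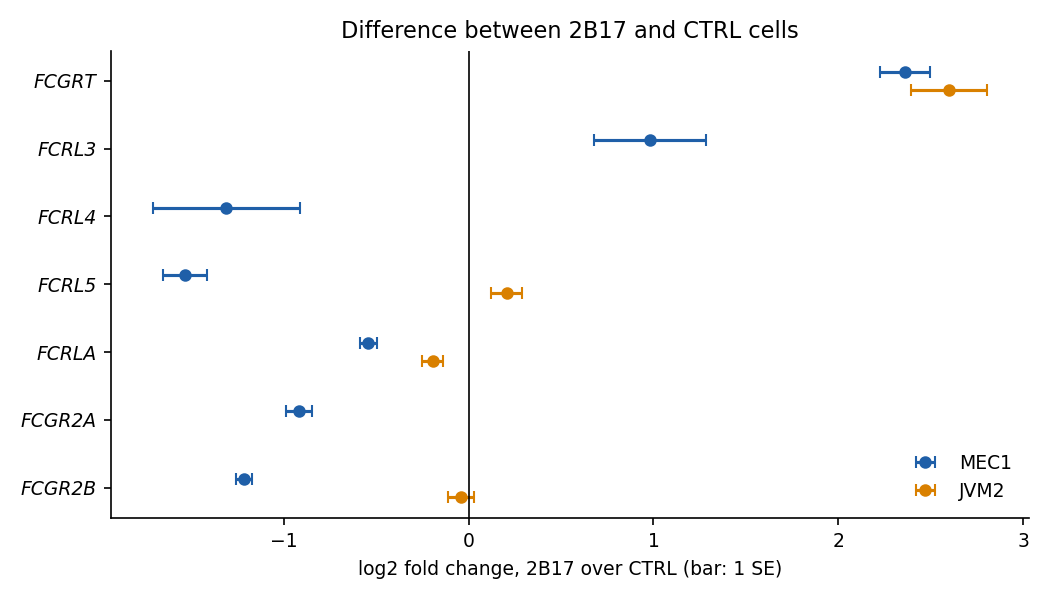
Log2 fold change of 2B17 over CTRL cells for each gene that passed the filter on low counts, MEC1 in blue and JVM2 in orange, with bars of 1 SE. *FCGRT* lies at 2.36 and 2.60, and the other values range from -1.53 to 0.98 in MEC1 and from -0.20 to 0.20 in JVM2. The MEC1 values of *FCRL3* and *FCRL4* passed the filter through 1 arm only.

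The control cells of the lines held these genes at different levels. Per kilobase of exons, the order in MEC1-CTRL was *FCRLA* at 29.7 ± 2.22 CPM per kb (SD, n = 3), *FCGR2B* at 11.98 ± 0.421, *FCGR2A* at 2.85 ± 0.147, *FCRL5* at 0.525 ± 0.0495, *FCGRT* at 0.300 ± 0.0484, *FCRL4* at 0.172 ± 0.0495 and *FCRL3* at 0.0469 ± 0.0107. In JVM2-CTRL it was *FCRLA* at 151 ± 0.571 CPM per kb, *FCGR2B* at 7.04 ± 0.270, *FCRL5* at 2.58 ± 0.247, *FCGRT* at 0.493 ± 0.151, *FCGR2A* at 0.164 ± 0.0522 and *FCRL4* at 0.131 ± 0.0719. *FCGR2A* and *FCRL4* overlapped in JVM2-CTRL, while the libraries of other neighbours in either order did not. In the 2B17 arms *FCGRT* reached 1.55 ± 0.108 CPM per kb in MEC1, slightly above *FCGR2A* at 1.51 ± 0.0616 with overlapping libraries, and 3.02 ± 0.456 in JVM2, beside *FCRL5* at 2.98 ± 0.0530, also with overlap.

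JVM2-CTRL was higher than MEC1-CTRL in *FCRLA* (log2 difference 2.51, SE 0.057, edgeR adjusted *P* = 2.1e-19) and *FCRL5* (2.47, SE 0.087, edgeR adjusted *P* = 3.6e-16). It was lower in *FCGR2A* (-3.93, SE 0.18, edgeR adjusted *P* = 1.9e-14) and *FCGR2B* (-0.60, SE 0.054, edgeR adjusted *P* = 2.6e-09). *FCRL4* did not pass the test (-0.24, SE 0.49, edgeR adjusted *P* = 0.66). *FCGRT* stood 0.89 higher in JVM2-CTRL (SE 0.25), given without a test since its CTRL values took part in choosing it. Of all genes in this fit, 78.3% differed between the control arms, 38.7% higher and 39.6% lower in JVM2-CTRL, and the line cannot be told apart from the construct of its control or from its table. Scaling by library size only moved the median log2 difference of all genes from -0.037 to -0.20. The direction of the 4 calls was unchanged by it. The *FCGRT* difference was 0.59 without JVM2-CTRL replicate 2, the highest of that arm.

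**Figure D3:**
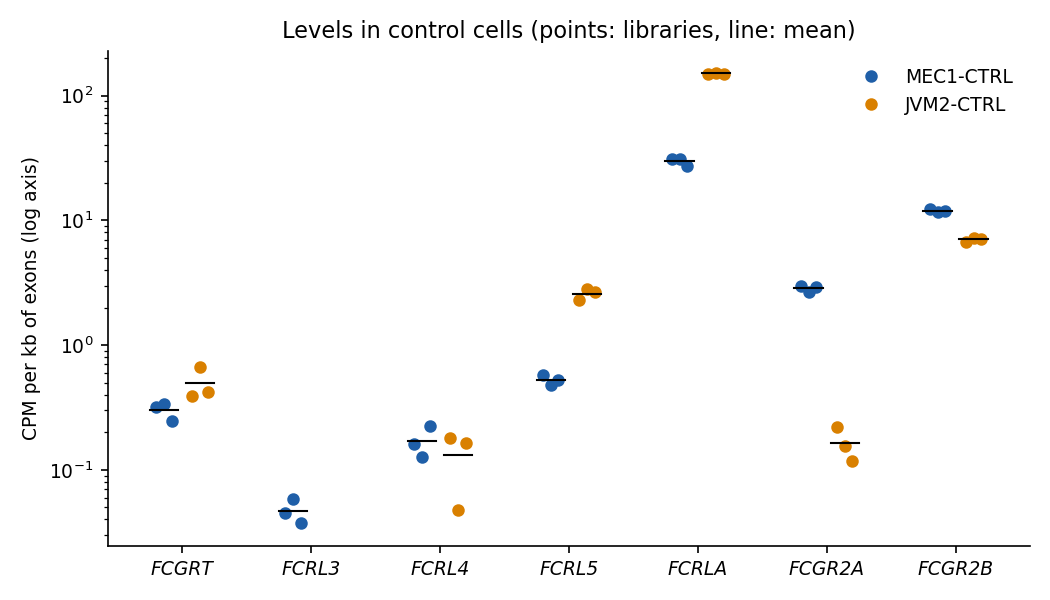
Levels of each gene per kilobase of exons (CPM per kb, log axis) in the MEC1-CTRL (blue) and JVM2-CTRL (orange) libraries, with points for libraries and a line for the mean of 3. *FCRLA* is highest in both lines, and *FCGR2A* is at 2.85 in MEC1-CTRL against 0.164 in JVM2-CTRL.

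Among 16 other Fc receptor genes, 8 were tested in MEC1, where 5 fell and 1 rose (median log2 ratio -0.30), and 5 were tested in JVM2, where 1 fell and 1 rose, with a median of 0.076. Beside these counts stand the 41.7% of all genes called in MEC1 and the 29.3% in JVM2. In MEC1, *FCRL6*, a receptor of cytotoxic lymphocytes, fell from 150, 136 and 134 counts to 24, 31 and 18 (log2 fold change -2.41, SE 0.17, edgeR adjusted *P* = 1.0e-09). *PIGR*, the polymeric immunoglobulin receptor of epithelia, fell from 24.2 ± 1.99 to 5.23 ± 0.250 CPM (-2.21, SE 0.079, edgeR adjusted *P* = 1.2e-13). In JVM2 *PIGR* had 172 ± 7.26 and 181 ± 3.30 CPM, a log2 fold change of 0.08 that did not pass (SE 0.057, edgeR adjusted *P* = 0.35), and its effects differed by -2.28 (SE 0.092, edgeR adjusted *P* = 1.7e-13). *FCGR2C* fell by 0.83 and *FCRLB*, an intracellular relative of FCRLA, by 0.47 on the log2 scale in MEC1, though 45.8% of the 50-base stretches of *FCGR2C* occur in other genes. *FCER2*, the low-affinity IgE receptor CD23 of B cells, rose in both lines by 0.27 (SE 0.036, edgeR adjusted *P* = 5.0e-06) and 0.25 (SE 0.085, edgeR adjusted *P* = 0.041), although the JVM2 arms overlapped and the JVM2 call was lost without any 1 JVM2 library other than 2B17 replicate 2 (edgeR adjusted *P* = 0.082 to 0.16). *TRIM21*, the cytosolic antibody receptor, was lower in both lines (log2 ratio -0.14 in MEC1 and -0.31 in JVM2), the MEC1 call being lost with DESeq2 (adjusted *P* = 0.072) and without MEC1-CTRL replicate 1 or any 1 MEC1-2B17 replicate (edgeR adjusted *P* = 0.055 to 0.11). *FCMR*, the IgM receptor of B cells, had -0.01 in MEC1 and 0.21 in JVM2 and passed in neither. In MEC1, 2 of 3 tested markers of natural killer cells were also lower, with log2 fold changes of -0.83 for *KLRD1* and -0.87 for *KLRF1*. The remaining marker, *NKG7*, stood at 0.44 and did not pass. The part of these markers in the *FCRL6* value was not tested.

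The partner of the FcRn heavy chain did not rise with it. *B2M* had 1953 ± 3.25 CPM in MEC1-CTRL and 1775 ± 61.6 CPM in the 2B17 cells, and its log2 ratio was -0.14 (SE 0.028, edgeR adjusted *P* = 5.0e-04). In JVM2 it had 3811 ± 67.0 and 3580 ± 94.7 CPM, and its log2 fold change of -0.09 did not pass (SE 0.045, edgeR adjusted *P* = 0.16), although it did without JVM2-2B17 replicate 2 (-0.11, edgeR adjusted *P* = 0.014). Per kilobase, *B2M* stood at 569 to 1221 CPM per kb in the 4 arms and *FCGRT* at 0.300 to 3.02. Among the 8 genes of the FcRn partner and endosomal recycling list, 7 were tested in MEC1, with 1 higher and 4 lower and a median of -0.097, and 6 in JVM2, with 1 higher and 1 lower and a median of -0.059, where 41.7% and 29.3% of all genes were called. *RAB4A*, a GTPase of fast recycling endosomes, rose by 0.26 in MEC1 and fell by 0.66 in JVM2 on the log2 scale, a tested difference of 0.93 (SE 0.16, edgeR adjusted *P* = 1.3e-04). *RAB11A*, a GTPase of recycling endosomes, went the other way, with -0.10 in MEC1 and 0.18 in JVM2, and both calls were lost with DESeq2 (adjusted *P* = 0.068 and 0.058). They were also lost without MEC1-CTRL replicate 1 or 2 or MEC1-2B17 replicate 1 or 3 (edgeR adjusted *P* = 0.055 to 0.14), and without any 1 JVM2-CTRL replicate or JVM2-2B17 replicate 3 (0.062 to 0.13). *MYO5B*, the motor that carries RAB11 vesicles, was tested in MEC1 only and fell (-0.70, SE 0.17, edgeR adjusted *P* = 0.0028).

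Of 15 genes that signal from ITAM and ITIM motifs, all tested in both lines, 9 fell and 1 rose in MEC1 (median log2 fold change -0.13) and 4 fell and 3 rose in JVM2 (median -0.053). Of all genes, 21.6% fell and 20% rose in MEC1, and 15.3% fell and 14.1% rose in JVM2. *SYK*, the kinase that binds phosphorylated ITAMs, fell from 57.8 ± 2.00 to 26.4 ± 1.25 CPM in MEC1 (-1.13, SE 0.050, edgeR adjusted *P* = 1.8e-12) and from 142 ± 7.49 to 114 ± 5.66 CPM in JVM2 (-0.32, SE 0.064, edgeR adjusted *P* = 0.0026). The phosphatases recruited by ITIMs were measured beside it. *INPP5D* (SHIP1), through which FcγRIIB inhibits, fell by 0.39 in MEC1 (SE 0.035, edgeR adjusted *P* = 3.5e-08) and did not pass in JVM2 (-0.14, edgeR adjusted *P* = 0.13). *PTPN6* (SHP-1) fell by 0.29 in MEC1 (edgeR adjusted *P* = 6.8e-07) and did not pass in JVM2 (-0.05, edgeR adjusted *P* = 0.49). *DOK3*, an adaptor that works with SHIP1, fell by 0.46 in MEC1, and the remaining phosphatases *PTPN11* and *INPPL1* stood at -0.13 and -0.12 in MEC1 and at -0.17 and -0.29 in JVM2, past the test in both lines, although *PTPN11* in JVM2 was lost with DESeq2 (adjusted *P* = 0.075). That call was also lost without JVM2-CTRL replicate 2 or 3 or JVM2-2B17 replicate 1 or 3 (edgeR adjusted *P* = 0.064 to 0.23), and *INPPL1* in MEC1 was lost without MEC1-2B17 replicate 2 (0.091). *FYN*, a Src family kinase, rose in JVM2 (0.68, SE 0.059, edgeR adjusted *P* = 3.0e-06) and did not pass in MEC1 (-0.04), and the adaptor *SHC1* rose by 0.20 in MEC1 and fell by 0.38 on the log2 scale in JVM2.

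The antibody genes, whose products the receptors bind, changed in both directions. Of 15 immunoglobulin constant and J chain genes, 9 passed the filter in both arms of MEC1, with 4 higher and 5 lower and a median of -0.78, and 6 were tested in JVM2, with 1 higher and 4 lower and a median of -0.60. The shares of all genes called were 41.7% and 29.3%. *IGHE*, the IgE heavy chain, passed in MEC1 only through the 2B17 arm and is left out of this count (11, 8 and 8 counts in CTRL and 20, 16 and 15 in 2B17 cells). *IGHG1*, the IgG1 heavy chain, fell from 168 ± 5.77 to 27.4 ± 2.58 CPM in MEC1 (-2.62, SE 0.051, edgeR adjusted *P* = 3.9e-17) and from 7.83 ± 1.24 to 4.77 ± 0.663 CPM in JVM2 (-0.73, SE 0.17, edgeR adjusted *P* = 0.0071). *IGHG3* fell in MEC1 (-2.09), and the IgG genes share sequence, which leaves the division of their reads uncertain. *IGHM* rose in MEC1 (0.67) and fell in JVM2 (-1.13), whereas *IGHD*, the IgD heavy chain, rose in both (1.34 and 1.02). *IGKC* rose in MEC1 (0.85) and did not pass in JVM2 (-0.05), and *JCHAIN* fell in both (-0.95 and -0.47). Plasma cell markers moved beside them, with 1 of 4 higher and 2 lower in MEC1 and all 4 lower in JVM2, *JCHAIN* being 1 of the 4. *PRDM1*, the transcription factor of plasma cell differentiation, fell in both lines (-1.46 and -1.58), *SDC1*, the plasma cell surface protein CD138, rose in MEC1 (0.77) and fell in JVM2 (-0.48), and *XBP1*, a transcription factor of secretory cells, fell in JVM2 (-0.39) and did not pass in MEC1 (0.01). Their part in the antibody gene and *FCRL5* values was not tested.

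**Figure D4:**
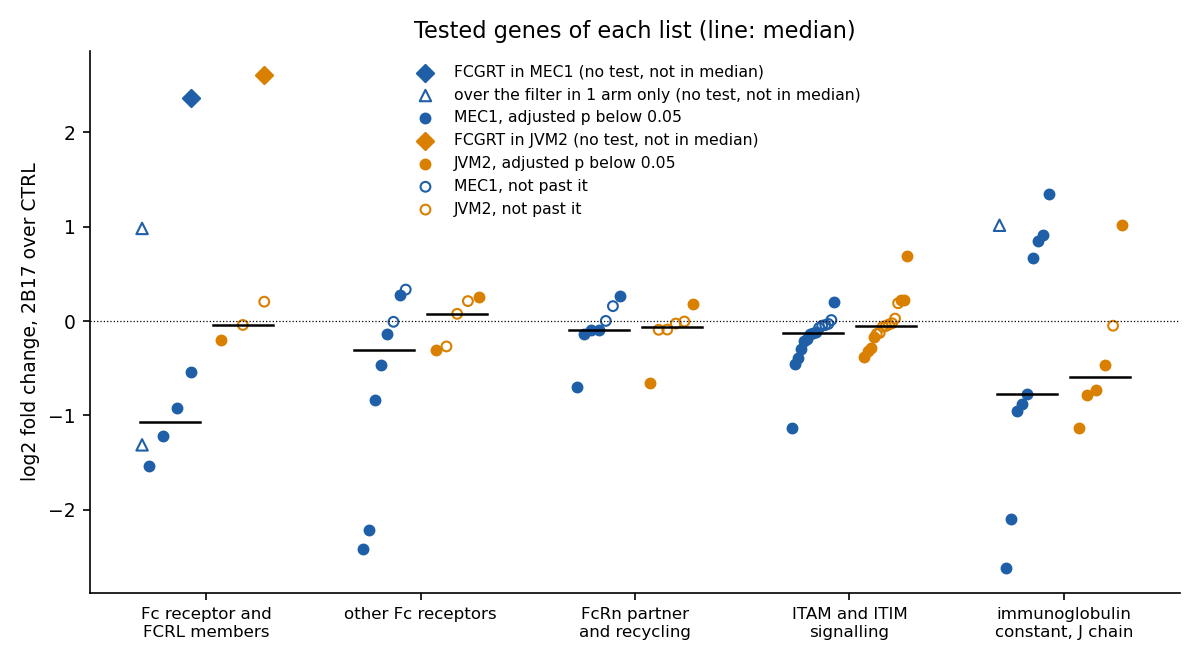
Log2 fold change of 2B17 over CTRL cells for every tested gene of 5 lists, MEC1 in blue and JVM2 in orange, filled where the edgeR adjusted *P* was below 0.05, with a line at the median. Open triangles are the genes that passed the filter through 1 arm only, *FCRL3*, *FCRL4* and *IGHE* in MEC1, which have no test and no part in the median. Diamonds mark *FCGRT*, which is left out of the median and of the test, and no other gene of these lists is as high as its log2 fold change of 2.36 in MEC1 or 2.60 in JVM2.

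The neighbours of the genes on their chromosomes were counted within 500 kb on each side. Around *FCGRT*, 15 of 38 tested genes were higher and 3 lower in MEC1-2B17 (median log2 fold change 0.16), and 2 of 34 were higher and 2 lower in JVM2-2B17 (median -0.0073). Of all genes, 20% were higher and 21.6% lower in MEC1, and 14.1% higher and 15.3% lower in JVM2. The next gene downstream on the same strand, *RCN3* (chr19:49528003-49546962), which encodes a calcium-binding protein of the secretory pathway, rose in MEC1 from 22, 19 and 30 counts to 85, 68 and 73. This was a change from 0.678 ± 0.196 to 2.30 ± 0.217 CPM, a log2 fold change of 1.77 (SE 0.20, edgeR adjusted *P* = 7.0e-07) without overlap. It was the largest value among the 38 neighbours, and *RCN3* in JVM2 was not analysed here.

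Around the cluster from *FCGR2A* to *FCRLA*, 3 of 25 tested genes other than the 3 receptors were higher and 8 lower in MEC1-2B17 (median -0.070), and 1 of 19 was higher and 1 lower in JVM2-2B17 (median -0.036), beside 41.7% and 29.3% of all genes called in either direction. The tested genes interspersed in the cluster were lower with the receptors in MEC1, namely *HSPA7* (-1.12), *FCGR2C* (-0.83) and *HSPA6* (-0.49). *FCGR3A*, also inside the cluster, had 8 summed counts in MEC1-CTRL and 9 in MEC1-2B17 and was not tested. *FCRLB* (-0.47) lies just beyond *FCRLA*. *DUSP12*, the gene after *FCRLB*, was higher (0.19, SE 0.054, edgeR adjusted *P* = 0.0090). Around the FCRL genes only 3 further genes were tested in MEC1, of which *ARHGEF11* fell (-1.76, SE 0.088, edgeR adjusted *P* = 1.1e-11). In JVM2 it fell by 0.22 on the log2 scale. The genes of the cluster between *FCGR2A* and *DUSP12*, and *ARHGEF11*, were named after their values were seen.

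**Figure D5:**
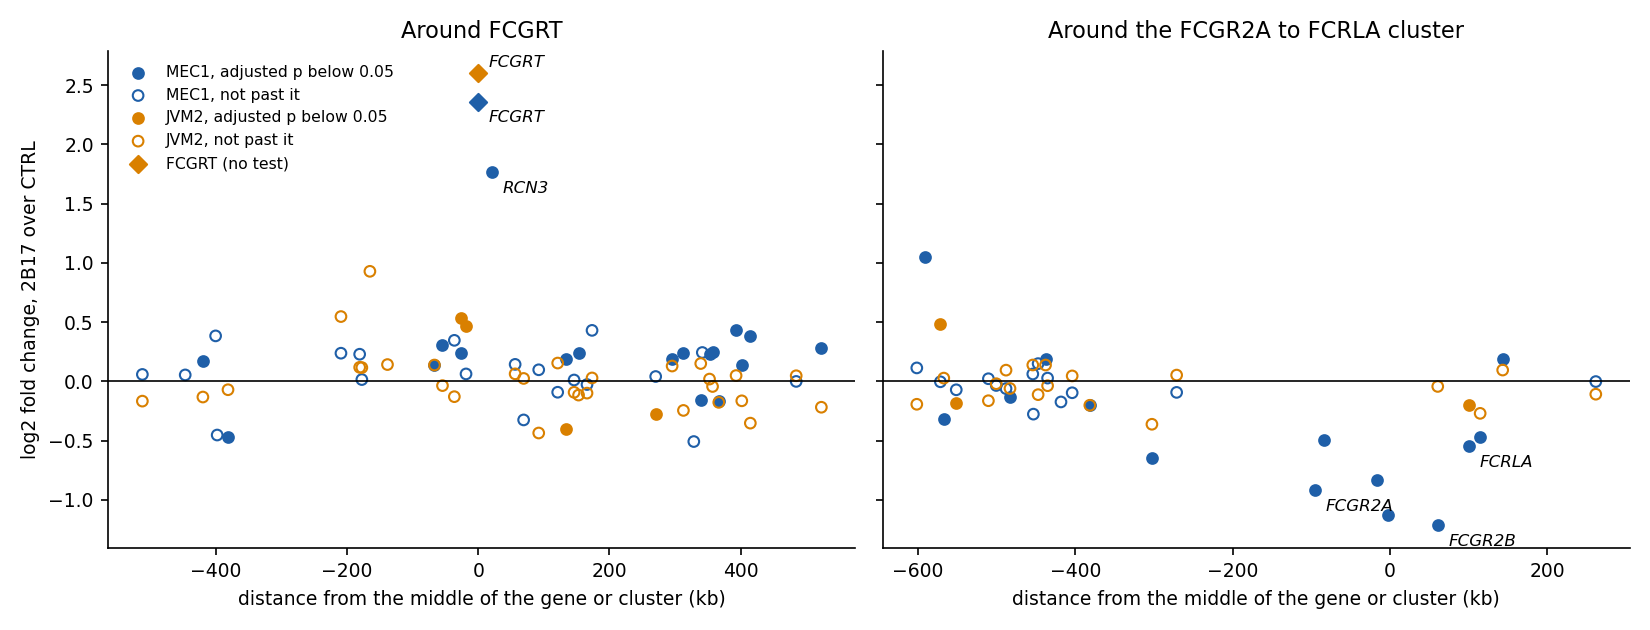
Log2 fold change of 2B17 over CTRL cells against the distance in kb from the middle of *FCGRT* (left) and of the cluster from *FCGR2A* to *FCRLA* (right), for genes tested within 500 kb on each side. MEC1 is blue and JVM2 orange, filled points passed the threshold, and diamonds mark *FCGRT*, which was not tested. *RCN3*, at 20.9 kb, is at 1.77 in MEC1, and the MEC1 points within the right-hand cluster from *FCGR2A* to *FCRLB* lie between -1.21 and -0.47.

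The genes whose pattern was most like that of *FCGRT* were sought over the 12 libraries, by the root mean square difference of log2 CPM centred on each gene's mean. Among 12242 genes with a median difference of 1.36, the closest were *TLN2* at 0.390, *EFNA1* at 0.635, *VWDE* at 0.653, *CLVS1* at 0.662 and *DHRS3* at 0.669. Of the relatives, the 3 tested in both lines were far down this order, where *FCGR2B* ranked 10633 at 1.63, *FCRLA* 10774 at 1.66 and *FCRL5* 11669 at 1.97. This order is a description, since *FCGRT* was chosen for its pattern over these same libraries.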

How the data were processed

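RNA of 3 replicates of each of 4 populations was sequenced after depletion of ribosomal RNA. Reads were trimmed by the authors, aligned with TopHat2 2.0.14 (hg38) and assigned to Ensembl genes with HTSeq. They deposited 1 table of raw counts for each line, in which every gene has 10 or more counts summed over its 6 libraries. Columns of the authors' own fold changes and *P*-values and of rounded normalized values in the same tables were not used.

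Counts were fitted here with edgeR 4.0.16 in R 4.3.3 (TMM scaling, filterByExpr at its defaults, quasi-likelihood F-test), each line on its own, 2B17 against CTRL. One fit of all 12 libraries over the genes of both tables gave the difference of the effects between the lines and the difference between the control arms. The Benjamini-Hochberg adjustment covered every gene of a fit, and the threshold was 0.05. TMM factors lay between 0.984 and 1.01 in JVM2 and 0.992 and 1.008 in MEC1, and the common biological coefficient of variation was 4.22% in MEC1 and 6.92% in JVM2. CPM used TMM-scaled library sizes. Levels per kilobase used the union of GENCODE v44 exons, which is on the build of the tables. Intervals of count ratios are exact binomial and cover counting error only. Since separate transfections are not stated for the replicates, *P*-values measure the spread between these samples.

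The members and the gene lists were chosen with earlier results of these data known. Named by rule were the 9 members, *UGT2B17*, *B2M*, up to 5 called genes of each list by the size of the change, the direct neighbours of *FCGRT* and the 5 genes most like it, for which 0.1 CPM was added before taking log2. Alternatives were DESeq2 1.42.0, edgeR's exact test, both of these together, RLE scaling, library size only, no filter, a minimum of 10 counts per library, a block for the replicate number, and leaving out each replicate. The method was tested on simulated data. A gene that the rule names is not reported here.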

Additional observations from a re-analysis of the deposited data

Results flagged for a closer look

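For the genes the naming rule takes, differences between the lines that passed the joint test are listed here. Each is the 2B17 effect in MEC1 minus that in JVM2, on the log2 scale. The line cannot be told apart from the construct and antibiotic of its control in these values. Among the Fc receptor and FCRL genes the differences were *FCRL5* (-1.73), *FCGR2B* (-1.17) and *FCRLA* (-0.34), and *PIGR* (-2.28) was a further Fc receptor. *FCGBP*, an IgG Fc-binding protein of mucus outside that rule, had a fitted difference the other way (1.76). Its summed counts were 20 in JVM2-CTRL and 7 in JVM2-2B17, too few to pass the filter there, so this value is given no test. The recycling GTPases *RAB4A* (0.93) and *RAB11A* (-0.27) differed in opposite directions. Among signalling genes the differences were -0.81 for *SYK*, -0.72 for *FYN*, 0.58 for *SHC1*, -0.42 for *DOK3*, -0.24 for *PTPN6* and -0.25 for *INPP5D*, with *DOK1* (-0.37), *BLNK* (-0.29) and *LYN* (-0.21) beyond that rule. The *DOK3* difference was lost in 8 of the 12 fits that left out 1 library, those without MEC1-CTRL replicate 2 or 3, MEC1-2B17 replicate 1 or 2, JVM2-CTRL replicate 1 or 2, or JVM2-2B17 replicate 1 or 3 (edgeR adjusted *P* = 0.069 to 0.15). The antibody genes *IGHM* (1.81), *IGHG1* (-1.88), *IGKC* (0.91) and *JCHAIN* (-0.48) differed as well, as did *UGT2B17* itself (0.47). With 3 replicates per arm, no gene was examined for a single library far from the others.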

How the results depend on the processing

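The 4 counts of calls over all genes stayed within 1.5 times their value under every alternative run. So did the counts of members called in the difference between the lines (3 throughout) and between the control arms (4 to 5). The latter count includes *FCGRT* where it passed. In MEC1 the count of members went from 4 to 6 with *FCRL3* and *FCRL4* included where they passed, and nothing is read from it. The 4 relatives that passed the filter in both MEC1 arms were all called in the main fit. In JVM2, where 1 relative of *FCGRT* was called, the number was 2 with no filter on low counts, which added *FCGR2A* (edgeR adjusted *P* = 0.017), and 0 to 2 with each replicate left out, at 0 without any 1 JVM2-CTRL replicate and at 2 without JVM2-2B17 replicate 2. *FCRL3* and *FCRL4* in MEC1 could not be tested with at least 10 counts in every library. The log2 fold change of *FCGRT* ranged from 2.24 to 2.45 in MEC1 with each replicate left out. Of 116 values of single genes, 95 kept their direction and side of the threshold under all alternatives that tested them. Directions turned for *DOK3* in JVM2 (-0.13 to 0.13 over the fits with a replicate left out), *IGKC* in JVM2 (-0.17 to 0.071), and the differences between lines of *FCER2* (-0.080 to 0.092) and *PTPN11* (-0.0050 to 0.078). Between the control arms they turned for *FCRL4* (-0.58 to 0.17, highest without JVM2-CTRL replicate 2) and *INPPL1* (-0.041 with library size only). The causes were not tested.

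With the replicate number as a block, 6897 genes instead of 6909 were called in MEC1 and 4236 instead of 3821 in JVM2. None of 116 calls of single genes changed, while that of *CSF1R* in MEC1, outside these 116, was lost. CTRL and 2B17 replicates that share a number had deviations from their arm means that correlated at -0.042, -0.0068 and 0.040 in MEC1 and at 0.086, 0.12 and -0.0059 in JVM2, so the numbers were not taken to pair the samples. The block gave 4930 genes for the difference between the lines and 11852 between the control arms, against 4848 and 11846.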
